A study of Saccharomyces cerevisiae with 8 samples.

Results

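Steady-state RNA of budding yeast cells that lack a working UPF1 gene was compared with that of wild-type (WT) cells during growth, without a translation inhibitor. The comparison rests on 4 of the 8 libraries of the series, namely upf1 cells treated with dimethyl sulfoxide (DMSO, replicates 1 and 2) against WT cells treated with DMSO (replicates 1 and 2), and it covers all 11993 features of the deposited table of normalized read densities. All cells were BY4741, haploid laboratory yeast of mating type a, with the genotype MATa his3Δ1 leu2Δ0 met15Δ0 ura3Δ0. The upf1 cells carried in addition the allele written upf1\*::kanMX4 in the labels, that is, a drug-resistance cassette at UPF1. Cultures in YPD, a rich glucose medium, were at an optical density of 0.5 at 30 °C when DMSO was added for 15 min. The remaining 4 libraries are the same 2 genotypes with cycloheximide (CHX, 100 µg/ml), which stops translation elongation. They entered the fit that estimates the spread and are used below as libraries outside the comparison.

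Upf1 is an RNA helicase that acts when a ribosome stops at a codon the cell reads as premature. With Upf2 and Upf3 it sends such messages to decapping and to digestion by Xrn1, a route called nonsense-mediated decay (NMD). Known NMD substrates in yeast include transcribed pseudogenes, mRNAs with upstream reading frames, unspliced pre-mRNAs that reach the cytoplasm, mRNAs that need a programmed frameshift, and non-coding RNAs with short reading frames. The comparison asks how the RNA content of growing cells changes when Upf1 is missing.

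The upf1 libraries with DMSO held 22.1 and 16.3 M reads and the WT libraries with DMSO 10.4 and 21.1 M reads, recovered from the densities. The median protein-coding gene had 968 and 718 reads in the upf1 libraries and 331 and 642 in the WT libraries, and the median XUT 36 and 25 in upf1 cells against 7 and 14 in WT cells, so non-coding RNAs were measured with less precision. The labels call the replicates biological, and p-values measure only the spread between these samples. STE2, the receptor gene that marks a cells, had densities of 3.86 and 4.01 in upf1 cells and 3.25 and 3.43 in WT cells, and URA3 and LEU2, deleted in BY4741, were at or near 0 in every library. HIS3, whose his3Δ1 allele removes part of the gene, was read at 0.511 and 0.854 in upf1 cells and 0.336 and 0.362 in WT cells (log2 0.91, adjusted p = 0.00337, rescaled 0.21, adjusted p = 0.287, but called at 0.48 without replicate 1 of upf1).

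A density is reads per feature length on the authors' library scale, on which the median of the 76 snoRNAs, small RNAs that guide rRNA modification, moved by -0.01 (log2). On this scale most mRNAs were higher in upf1 cells. Each result is therefore also given after rescaling the libraries on genes with systematic names beginning with Y, called rescaled, where a change is relative to the typical mRNA. All log2 changes are upf1 minus WT on log2(density + 0.00549), which understates the change of features of low density. A feature is called higher or lower where limma's adjusted p is under 0.05.

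Of the classes with over 100 members, SUTs and XUTs had the largest increases. SUTs (stable unannotated transcripts) shifted by a median of 1.43 ± 0.0932 and XUTs (Xrn1-sensitive transcripts) by 1.33 ± 0.0824, against 0.575 ± 0.134 for protein-coding genes (log2, SD over 2 upf1 libraries against the WT mean). Rescaled, these shifts were 0.939 ± 0.0385, 0.925 ± 0.0476 and -0.102 ± 0.00892. Both upf1 libraries lay above both WT libraries for SUTs and XUTs on either scale, whereas the direction for protein-coding genes turned with the scale. In bulk RNA, fewer cells with an RNA and less of it per cell cannot be told apart.

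Over all 11700 features tested the median was 0.64, and 0.04 after rescaling. Of them 7251 were higher (62.0%) and 104 lower (0.889%) on the deposited scale, and 3630 were higher (31.0%) and 2498 lower (21.4%) after rescaling. On the same scale 3927 of 5878 protein-coding genes were higher (66.8%) and 24 were lower (0.408%), and rescaled 1367 (23.3%) and 1898 (32.3%). The count of 3927 rested on single libraries, at 2366 without replicate 2 of upf1 and 2378 without replicate 1 of WT. Both scales together called 1365 protein-coding genes higher (23.2%) and 24 lower. The 4 genes of the 2-micron plasmid, a multicopy circle in the nucleus, had a median of 1.70 (rescaled 1.00), with 3 called higher and 2 after rescaling. CUTs (cryptic unstable transcripts, cleared by the nuclear exosome) had a median of 0.43 on the deposited scale and -0.10 rescaled. tRNAs went the other way, with 57 of 268 lower and a median of -0.39 (rescaled 142 lower and -1.08), at a median of 9 and 7 reads per tRNA in upf1 cells and 8 and 15 in WT cells. The tRNA median on the deposited scale was -0.22 without replicate 1 of upf1 and -0.51 without replicate 2.

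**Figure D1:**
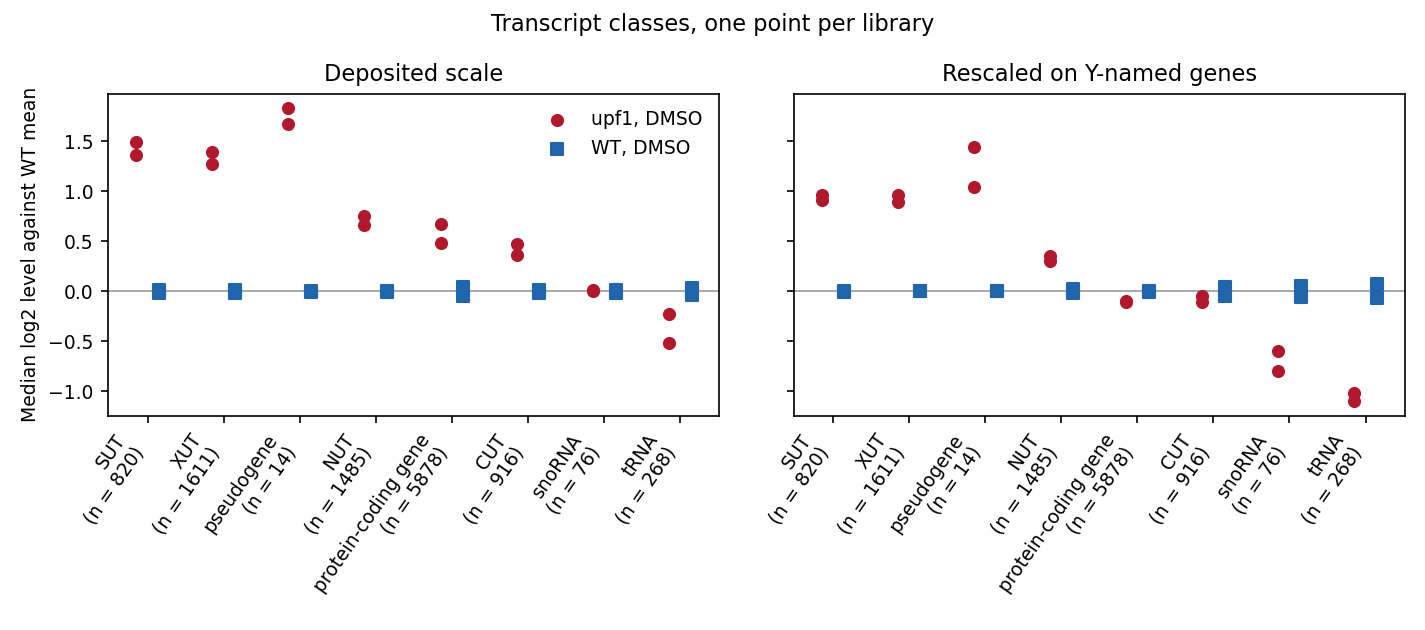
Median log2 level of each transcript class in each DMSO library against the mean of the WT libraries (y axis), with upf1 (circles) left of WT (squares) in every class, on the deposited scale (left) and rescaled on Y-named genes (right); n is the number of features tested. SUTs and XUTs stand near 1.4 and 1.3 on the left and near 0.9 on the right, and tRNAs lie below 0 in both panels.

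The targeted gene separated the genotypes. NAM7, the name of UPF1 in the reference annotation (YMR080C, build R64, chromosome XIII, 426712 to 429627, minus strand), had densities of 0.0216 and 0.0239 in upf1 cells and 0.533 and 0.588 in WT cells. Both upf1 libraries were far below both WT libraries, and the log2 change was -4.32 (SE 0.16, adjusted p = 2.66e-07 by limma, rescaled -5.09). Some reads remained, 134 and 96 in upf1 cells against 1901 and 3868 in WT cells. SEC14, the gene beside it that codes for a phosphatidylinositol transfer protein, had densities of 2.67 and 2.96 in upf1 cells and 2.25 and 2.45 in WT cells.

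The genes of the partners of Upf1 were among those that rose. NMD4, which codes for a protein that binds the Upf1 helicase domain, had densities of 1.02 and 1.10 in upf1 cells and 0.196 and 0.173 in WT cells, with no overlap between genotypes. Its log2 change was 2.49 (SE 0.18, adjusted p = 1.11e-06) and 1.80 rescaled. EBS1, a relative of the telomerase gene EST1 with a role in NMD, changed by 1.85 (rescaled 1.16, adjusted p = 4.01e-05). NMD2, the gene of Upf2, had 0.270 and 0.318 in upf1 cells and 0.135 and 0.133 in WT cells, a log2 change of 1.10 (rescaled 0.42, adjusted p = 0.014). The rescaled call of NMD2 was lost without replicate 2 of WT (adjusted p = 0.0711) or of upf1 (0.0578). UPF3 rose on the deposited scale only (0.54, adjusted p = 0.0147, rescaled -0.14, adjusted p = 0.302), and not without replicate 1 of WT (adjusted p = 0.118) or replicate 2 of upf1 (0.0983). Genes of the steps after Upf1 did not share this. Of 12 decapping and Xrn1 genes 7 were higher on the deposited scale (58.3%, beside 66.8% of protein-coding genes). After rescaling 0 were higher, beside 23.3% of protein-coding genes, and 8 lower (66.7%, beside 32.3%). XRN1 itself was at 0.43 and, rescaled, -0.28. The deposited-scale call of XRN1 was lost without any 1 of the 4 libraries (adjusted p from 0.0551 to 0.154), and the rescaled call without any but replicate 1 of upf1 (0.0552 to 0.0722).

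The rule for named genes took the 3229 Y-named genes of at least median density. Of them 486 were higher on both scales with both upf1 libraries above both WT libraries, and 16 were lower with both below. Without the limits on density and separation, 23.2% of protein-coding genes were higher on both scales and 0.408% lower. The 15 of the 486 with the largest increase on the deposited scale had densities between 0.453 and 1.71 in upf1 cells and between 0.0383 and 0.176 in WT cells. All these WT densities were below the median of 0.269, so the 15 genes passed the density filter through the upf1 libraries. That filter favours genes that are high there, and separate libraries are part of the rule. The leading genes SLO1, DAL7, ISC10 and PAU7 had log2 changes from 3.61 to 4.13. NUT2, a subunit of the Mediator complex of RNA polymerase II (YPR168W, chromosome XVI, 878076 to 878549), had 1.03 and 1.09 in upf1 cells against 0.0971 in each WT library. That is a log2 change of 3.38 (SE 0.16, adjusted p = 3.52e-07) and 2.71 rescaled. HTL1, a small subunit of the RSC chromatin remodeller (YCR020W-B, chromosome III, 155320 to 155556), had 1.60 and 1.71 in upf1 cells against 0.176 and 0.161 in WT cells, a log2 change of 3.26 (rescaled 2.57). SWC7 codes for a subunit of the SWR1 remodeller (3.48, rescaled 2.82).

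BSC5 and YNR068C, adjacent on the minus strand of chromosome XIV, rose together. BSC5, named for the bypass of a stop codon, had 0.562 and 0.531 in upf1 cells and 0.0584 and 0.0443 in WT cells (log2 3.29, rescaled 2.65). YNR068C had 0.604 and 0.628 in upf1 cells and 0.0513 and 0.0492 in WT cells (3.48 and 2.84). SLO1 and ISC10 on chromosome V are likewise neighbours, 337 bases apart on the minus strand. On the far side of SLO1, YER181C changed by 0.90 and did not pass the threshold after rescaling (0.30, adjusted p = 0.147). PAU7 and DFP1, a gene of the DUP240 membrane protein family, lie side by side on chromosome I and changed by 3.61 and 3.33. CDC15 on the other side of PAU7, a mitotic exit kinase gene, was at 0.26 (adjusted p = 0.160) and lower after rescaling (-0.42, adjusted p = 0.0181). That rescaled call was lost without replicate 1 of WT (-0.33) or replicate 2 of upf1 (-0.34). It was also lost in a fit of the 4 DMSO libraries alone (adjusted p = 0.0528). The remaining increases were DAL5 (3.48), STN1 (3.36), YCR095W-A (3.31), YJL213W (3.26) and YIL028W (3.50), the last with no entry in the annotation used here.

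**Figure D2:**
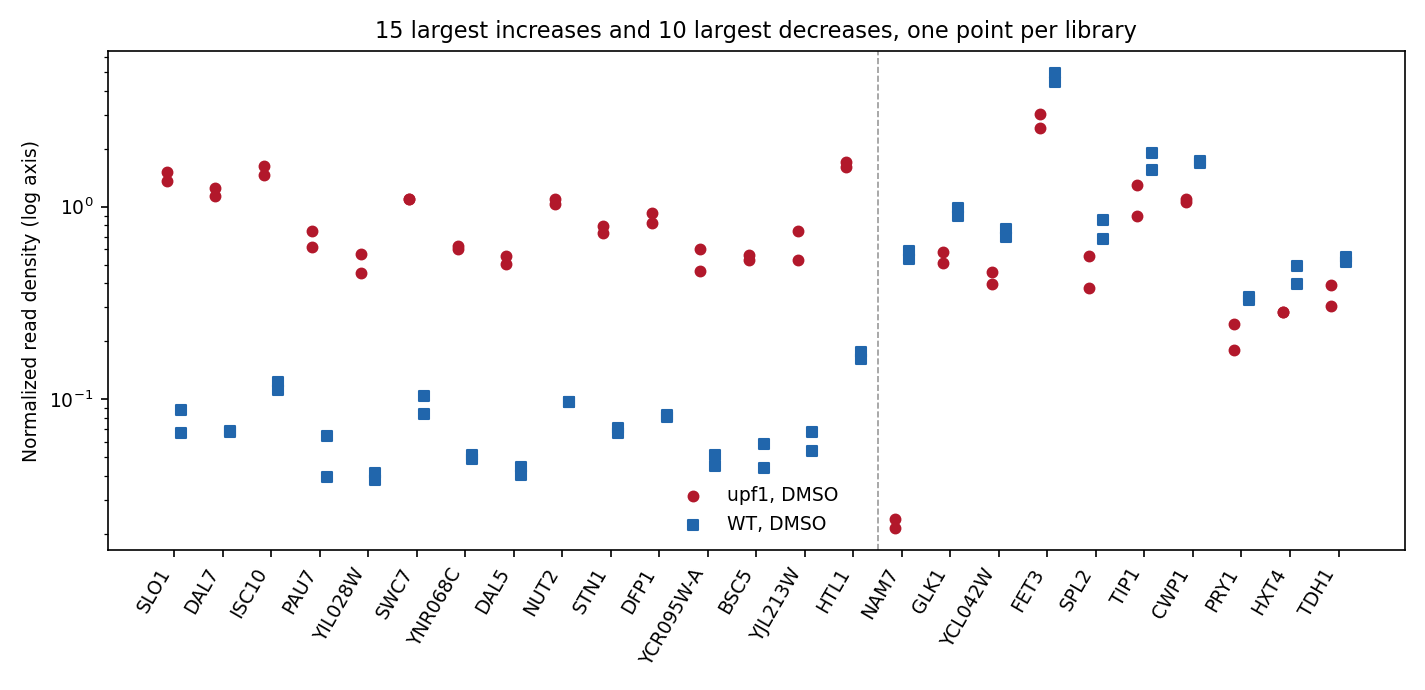
Normalized read density (log axis) of the 15 largest increases (left of the dashed line) and the 10 largest decreases (right) among genes of at least median density in each DMSO library, with upf1 (circles) left of WT (squares). The upf1 libraries reach 0.453 to 1.71 for the increases, above all WT libraries, a separation that the rule for naming them requires. Apart from NAM7 the decreases are small gaps.

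A pseudogene may carry a premature stop that can be read in the genome, and 7 of the 9 called higher have one before their annotated end. The 6 whose annotated length is a multiple of 3 are shown. In each sequence below, from the reference genome of S288C (the parent of BY4741; build R64), the capitals mark the first stop codon in the frame of the annotated start, with 12 bases before it.
FLO8: ttgtatgaatggTAGcaaatattctgggac
SDL1: ttgaggcacgaaTGAatggcgcaagaaagc
YIR043C: ccacttagcatcTGAtggaaactttccaac
YOL153C: cacaaatatttcTAAgagacttttcctctt
CCW22: gacgttatcactTAAtacaccacctggtgt
CRS5: atatgtgactgtTAAggcgaatgttgtaag
The FLO8 window is chrV:377174-377203 on the minus strand, and those of SDL1 and CRS5 are chrIX:29401-29430 and chrXV:389225-389254 on the plus strand. Those of YIR043C (chrIX:437979-438008), YOL153C (chrXV:38160-38189) and CCW22 (chrIV:721266-721295) are on the minus strand. The stop is codon 142 of 800 in FLO8, 128 of 339 in SDL1, 62 of 379 in YIR043C, 131 of 582 in YOL153C, 67 of 137 in CCW22 and 9 of 70 in CRS5.

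These 6 were picked from the pseudogenes called higher, so their rise is no separate result. Of 14 tested pseudogenes 9 rose on both scales (64.3%, beside 23.2% of protein-coding genes). The median of the 14 was 1.75 (rescaled 1.07), beside 0.57 (rescaled -0.11) for protein-coding genes. FLO8, an activator of flocculation genes (YER109C, chromosome V, 375215 to 377614), had densities of 0.282 and 0.344 in upf1 cells and 0.0849 and 0.0855 in WT cells. The genotypes did not overlap, and the log2 change was 1.81 (SE 0.17, adjusted p = 6.84e-06) and 1.14 rescaled (adjusted p = 2.38e-05). SDL1, a disabled serine dehydratase gene, had 0.144 and 0.206 in upf1 cells and 0.0121 and 0.0212 in WT cells, a log2 change of 3.04 (rescaled 2.53). CRS5, a copper metallothionein gene, had 0.316 and 0.331 in upf1 cells against 0.123 and 0.172 in WT cells, and its change was the smallest of the 9 (1.12, rescaled 0.44, adjusted p = 0.0298). The rescaled call of CRS5 was lost without replicate 1 of WT (adjusted p = 0.159) or without either replicate of upf1 (0.136 and 0.0548), and also in a fit of the 4 DMSO libraries alone (0.0853).

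SDC25, a Ras exchange factor gene with no stop before the annotated end of its frame (codon 1049 of 1049), and YLL017W, the fragment upstream of it that ends in its own stop after 104 codons counting that stop, rose by 2.48 and 2.71 (rescaled 1.87 and 2.30). AAD6, an aryl-alcohol dehydrogenase gene whose frame stops at codon 213 of 375 and whose annotated length is no multiple of 3, rose by 2.60 (rescaled 1.92). CCW22, at 11.2 and 11.4 in upf1 cells and 3.48 and 3.45 in WT cells, was the most abundant of them, and it rose by 1.70 (rescaled 1.00, adjusted p = 8.19e-04). The other 5 tested pseudogenes had at most 10 reads in any DMSO library and were not called, and YCL074W had 0 reads in all 4 and was not tested.

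A programmed +1 frameshift also puts a stop codon in the way of a ribosome that does not shift. The next sequences show the site in the 3 yeast genes of this kind that are annotated as 2 coding segments with 1 base between them. The capitals mark the last codon before the shift, the skipped base and the next codon.
EST3: caccaaataCTTAGTTgagttttcccaaga
ABP140: gactcttgtCTTAGGCattgatcaacagca
OAZ1: gattggtgcGCGTGACatccctctagacgt
Without the shift the frame ends at codon 94 in EST3, whose full frame has 182 codons counting the stop, at codon 280 in ABP140, of 629, and at codon 70 in OAZ1, of 293. The EST3 window is chrIX:335919-335948 on the minus strand, that of ABP140 chrXV:785676-785705 and that of OAZ1 chrXVI:458994-459023, both on the plus strand.

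EST3, a telomerase subunit gene, had densities of 1.01 and 1.13 in upf1 cells and 0.190 and 0.191 in WT cells. Both upf1 libraries were above both WT libraries, with a log2 change of 2.45 (SE 0.16, adjusted p = 7.25e-07) and 1.76 rescaled. OAZ1, which codes for the antizyme that limits polyamine synthesis, rose on the deposited scale (0.84, adjusted p = 0.00526) but not after rescaling (0.15, adjusted p = 0.34). ABP140, an actin-binding tRNA methyltransferase gene, was at 0.58 (adjusted p = 0.0081) and -0.13 rescaled (adjusted p = 0.15). The deposited-scale calls of OAZ1 and ABP140 were lost without replicate 2 of upf1 (adjusted p = 0.0536 and 0.0553), and that of ABP140 also without replicate 1 of WT (0.0792). Of the 3 genes EST3 alone was called on both scales, and whether they differ from each other was not tested.

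Genes with reported upstream reading frames moved little as a list. Of 24, 20 were higher on the deposited scale (83.3%, beside 66.8% of protein-coding genes). After rescaling 8 were higher (33.3%, beside 23.3%) and 5 lower (20.8%, beside 32.3%), with a median of -0.03. CPA1, the small subunit of carbamoyl phosphate synthetase in arginine synthesis (YOR303W, chromosome XV, 882899 to 884134), had the largest change of the list. Its leader encodes the arginine attenuator peptide, and an ATG 134 bases upstream of the gene opens a frame of 25 codons that ends 59 bases upstream. That start codon is in capitals here (chrXV:882753-882782, plus strand).
CPA1: aaaaaacattatATGtttagcttatcgaac
CPA1 had densities of 2.11 and 2.35 in upf1 cells and 0.406 and 0.482 in WT cells, with wide separation. The log2 change was 2.32 (SE 0.15, adjusted p = 6.58e-07) and 1.62 rescaled (adjusted p = 5.55e-06).

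Next came PPR1, a transcription factor gene (1.55, rescaled 0.90), INO2, an activator of phospholipid genes (1.29, rescaled 0.61), ARV1 of sterol transport (1.28, rescaled 0.60) and CBS1, an activator of cytochrome b translation (1.13, rescaled 0.46). GCN4, the regulator of amino acid synthesis whose leader holds several upstream frames, had 7.35 and 8.41 in upf1 cells and 4.07 and 4.34 in WT cells (0.90, rescaled 0.20, adjusted p = 0.0229), and its rescaled call was lost without any 1 of the 4 libraries (adjusted p from 0.0570 to 0.107). YAP1 of the oxidative stress response was at 1.06 (rescaled 0.36). On the other side, the G1 cyclin gene CLN3 had 0.337 and 0.297 in upf1 cells and 0.323 and 0.330 in WT cells, which overlapped (-0.04, adjusted p = 0.81), and it was lower after rescaling (-0.74, adjusted p = 0.00759). The kinase gene SCH9 and SCO1 of cytochrome oxidase assembly were also lower after rescaling (-0.41 and -0.50), SCO1 not without replicate 2 of WT (adjusted p = 0.0622) or replicate 1 of upf1 (0.0611).

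Of 16 other mRNAs reported as NMD targets, 15 were higher on the deposited scale and 13 after rescaling, with 2 lower, and the medians were 1.97 and 1.28. The list was taken from earlier work on upf mutants and is no independent sign of direction. PGA1 of glycolipid anchor synthesis had 0.970 and 1.12 in upf1 cells and 0.245 and 0.264 in WT cells (2.01, rescaled 1.32). ALR1, a plasma membrane magnesium transporter gene, had 1.01 and 1.18 in upf1 cells and 0.322 and 0.350 in WT cells (1.68, rescaled 0.98). COX19 of mitochondrial copper handling (1.94), REV7 of DNA polymerase zeta (1.57), the sulfite resistance factor gene FZF1 (1.26) and SPT10 (1.06), a histone gene activator, followed, all called after rescaling as well. UBP7, a ubiquitin protease gene, and CTR2, a vacuolar copper transporter gene, were lower after rescaling (-0.36 and -0.33), but not without replicate 2 of upf1 (adjusted p = 0.069 and 0.0771). Without a WT library the call of UBP7 was lost for replicate 1 (0.0760) and that of CTR2 for replicate 2 (0.0631).

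Of 16 genes for telomerase and the proteins that cap chromosome ends, 14 were higher on the deposited scale (87.5%, beside 66.8% of protein-coding genes). After rescaling 9 were higher (56.2%, beside 23.3%) and 2 lower, and the median was 1.20 (rescaled 0.53). EST1, EST2, EST3, STN1 and TEN1 are also on the list of other reported NMD targets, so their calls are no independent sign of direction. EST2, the catalytic subunit (YLR318W, chromosome XII, 766542 to 769196), had densities of 0.243 and 0.285 in upf1 cells and 0.0283 and 0.0329 in WT cells, a log2 change of 2.90 (SE 0.19, adjusted p = 7.43e-07, rescaled 2.30). STN1, of the complex that binds the single-stranded end (YDR082W, chromosome IV, 610441 to 611925), had 0.729 and 0.796 in upf1 cells against 0.0713 and 0.0671 in WT cells (3.36, rescaled 2.71). Its partner TEN1 had 0.381 and 0.453 in upf1 cells and 0.0685 and 0.0756 in WT cells (2.44, rescaled 1.78). In all 3 the upf1 libraries were several-fold above the WT libraries.

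The third member of that complex, CDC13, did not pass the threshold after rescaling (0.74, rescaled 0.08, adjusted p = 0.649), and its deposited-scale call was lost without replicate 2 of upf1 (adjusted p = 0.101) or replicate 1 of WT (0.0610). EST1 rose by 2.03 (rescaled 1.38), RIF2, which limits telomere length, by 2.21 (1.60), and the checkpoint kinase gene TEL1 by 1.84 (1.17). Both subunits of the end-binding Ku dimer rose, YKU80 by 1.33 and YKU70 by 1.06 (rescaled 0.66 and 0.39), with the rescaled call of YKU70 lost without replicate 2 of WT (adjusted p = 0.0920) or replicate 1 of upf1 (0.0954). The silencing genes SIR3 and SIR4 were called on the deposited scale only (0.55 and 0.68, rescaled adjusted p = 0.324 and 0.997), and those calls were lost without replicate 2 of upf1 (0.0644 and 0.0588) or of WT (0.0843 and 0.0563). SIR2 had 0.167 and 0.202 in upf1 cells and 0.181 and 0.191 in WT cells, which overlapped (-0.01), with a lower rescaled value (-0.71, adjusted p = 4.78e-04). RAP1, which binds telomeric repeats and many promoters, was also lower after rescaling (-0.51).

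Genes near chromosome ends, which include silenced genes and repeated families, are here the protein-coding genes within 10 kb of an end. Of 76 tested, 54 were higher after rescaling (71.1%), with a median of 1.18, beside 1128 of 5251 beyond 50 kb (21.5%), a difference that was not tested. The median was 0.65 between 10 and 20 kb (111 genes), 0.12 between 20 and 30 kb (137), -0.13 between 30 and 50 kb (303) and -0.12 beyond 50 kb (5251). Such genes are weakly expressed, with a median density in WT cells with CHX of 0.0741 within 10 kb and 0.710 beyond 50 kb. Among genes in the lower 2 quintiles of that density the same medians were 1.28, 1.22, 0.71, 0.20 and 0.11.

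Level alone also went with the change. From the lowest to the highest quintile of density in WT cells with CHX, libraries that take no part in the contrast, the rescaled median was 0.36, 0.06, -0.07, -0.19 and -0.40. Within the top quintile 37 of 1176 genes were higher and 869 lower. No chromosome stood apart, with medians from -0.17 on chromosome III to -0.08 on chromosome XVI. Why level and distance go with the change was not tested.

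**Figure D3:**
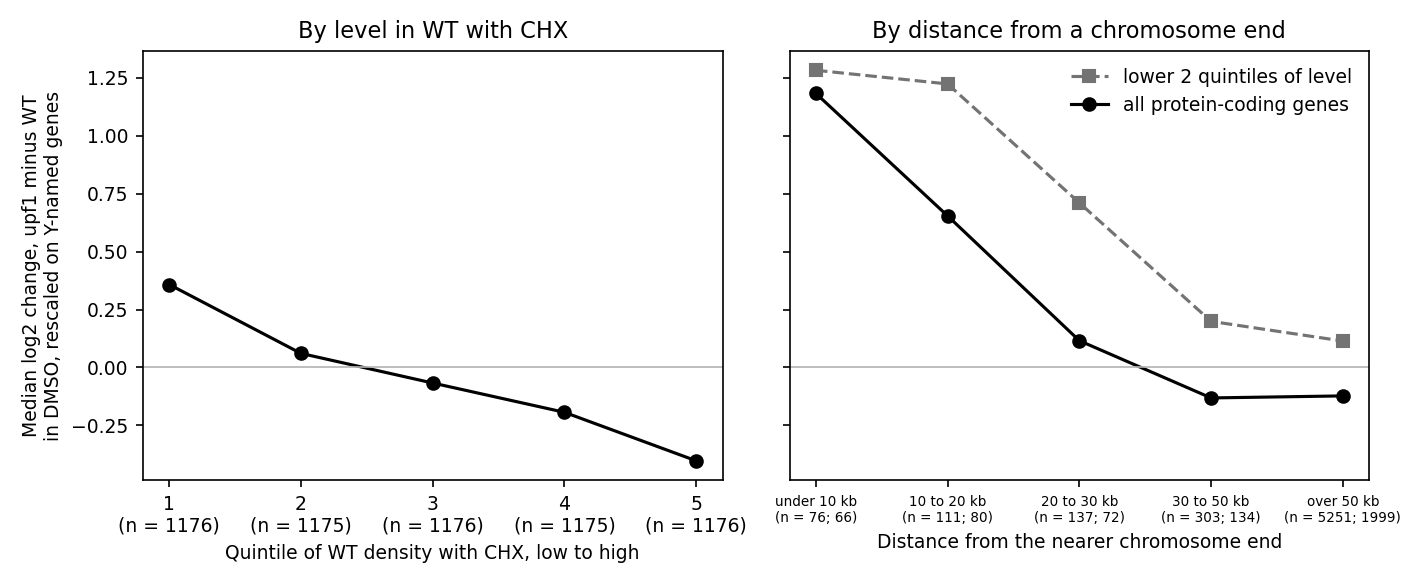
Median rescaled log2 change (y axis, upf1 minus WT in DMSO) of protein-coding genes by quintile of WT density with CHX (left) and by distance from the nearer chromosome end (right), with genes of the lower 2 quintiles as squares; the second n is theirs. The median declines from 0.36 to -0.40 with level, and from 1.18 within 10 kb to -0.12 beyond 50 kb.

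The PAU and COS families sit mostly near chromosome ends, and their reads can be shared between near-identical copies, so single members are uncertain. Of 17 PAU genes tested, which code for small cell wall mannoproteins, 14 were higher (82.4%, beside 66.8% of protein-coding genes). After rescaling 10 were higher (58.8%, beside 23.3%) and 0 lower, beside 32.3% of protein-coding genes. Their median was 1.67 (rescaled 1.18). PAU5 was at 2.66 and PAU17 at 2.37 (rescaled 2.37 and 1.75). Of 11 COS genes, which code for membrane proteins that help to sort others to the vacuole, 10 were higher (90.9%). After rescaling 5 were higher (45.5%) and 1 lower (9.09%). COS12 was at 4.01 (rescaled 3.45) and COS10 at 2.24 (rescaled 1.57), whereas COS3 was at 0.17 and -0.50.

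The pyrimidine pathway combines an NMD-sensitive regulator and its targets. Ppr1 activates some URA genes when pyrimidines are short, and it binds CGG and CCG set 6 bases apart. The sites found between 250 bases before and 50 bases after the gene starts are shown with both triplets in capitals, the first of URA1 212 bases before the start codon (chrXI:24994-25023), the second 181 bases before it (chrXI:25025-25054), and that of URA4 130 bases before it (chrXII:963646-963675), all on the plus strand.
URA1 first: tttcttcacCGGgctttgCCGaaggttatt
URA1 second: cacgatcttCGGcattcgCCGaaaattttt
URA4: ttcatcattCGGagaattCCGatgaatcgg
This motif, which reads the same on both strands, was in 75 of 6001 such windows of the genome (1.25%). It was in 2 of the 4 windows of the Ppr1 list and in 0 of the 9 of the other pyrimidine genes.

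All 4 genes of the Ppr1 list were higher on both scales. PPR1 itself had densities of 0.170 and 0.223 in upf1 cells and 0.0609 and 0.0645 in WT cells (1.55, SE 0.21, adjusted p = 9.30e-05, rescaled 0.90). URA1, dihydroorotate dehydrogenase, had 7.57 and 9.89 in upf1 cells and 3.67 and 4.35 in WT cells (1.11, rescaled 0.41, adjusted p = 0.00931), and URA4, dihydroorotase, 2.33 and 2.72 in upf1 cells against 1.18 and 1.38 in WT cells (0.97, rescaled 0.27, adjusted p = 0.0242). Neither overlapped between genotypes, but without replicate 1 of WT or replicate 2 of upf1 the rescaled calls of URA1 (adjusted p = 0.0639 and 0.0567) and URA4 (0.152 and 0.0829) were lost, and that of URA4 also without replicate 1 of upf1 (0.0710). URA10, the minor orotate phosphoribosyltransferase gene, had no site in the window and rose most, with 0.305 and 0.314 in upf1 cells and 0.0582 and 0.0548 in WT cells (2.35, rescaled 1.70). The major gene of the same step, URA5, had 2.98 and 3.63 in upf1 cells against 2.93 and 3.25 in WT cells (0.09, adjusted p = 0.59, rescaled -0.61). Of 9 other pyrimidine genes 2 were higher, and after rescaling 1, the uridylate kinase gene URA6 (0.39, adjusted p = 0.0548 without replicate 1 of WT), with 6 lower.

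Allantoin and urea are poor nitrogen sources, whose genes are kept low in rich medium. Of 11 such genes 9 were higher (81.8%, beside 66.8% of all protein-coding genes) and 8 after rescaling (72.7%, beside 23.3%), with a median of 1.37 (rescaled 0.79). DAL7 is also on the list of other reported NMD targets. The rescaled call of DAL1, allantoinase, was lost in a fit of the 4 DMSO libraries alone (adjusted p = 0.0605). DAL5, the allantoate permease (YJR152W, chromosome X, 719666 to 721297), had densities of 0.501 and 0.557 in upf1 cells and 0.0406 and 0.0444 in WT cells, a log2 change of 3.48 (SE 0.17, adjusted p = 3.52e-07, rescaled 2.86). DAL2, allantoicase, had 0.375 and 0.537 in upf1 cells against 0.0522 and 0.0433 in WT cells (3.10, rescaled 2.46). The urea permease gene DUR3 and ureidoglycolate lyase gene DAL3 each rose by 1.89 (rescaled 1.25 and 1.30).

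Among the regulators of this list, the coactivator genes DAL82 and DAL81 were at 1.14 and 0.56 (rescaled 0.46, lost without replicate 1 of WT or replicate 2 of upf1 at adjusted p = 0.0679 and 0.0634, and -0.12), the deposited-scale call of DAL81 was lost without replicate 1 of upf1 (0.0503) or of WT (0.107), and the repressor gene DAL80 had 3 and 0 reads in upf1 cells and 1 and 4 in WT cells. The allantoin permease gene DAL4 was not called (0.52, adjusted p = 0.079). GATA factors, which switch these genes on, recognise GATAAG on either strand, a motif in 881 of 6001 promoter windows (14.7%) and in 7 of the 11 of this list. DAL7 had 4 matches and DAL5 had 1, shown in capitals from 209 and 176 bases before DAL7 (chrIX:414871-414900 and chrIX:414838-414867, minus strand) and 171 bases before DAL5 (chrX:719483-719512, plus strand).
DAL7 first: gcgtttgcttttCTTATCacataaattgaa
DAL7 second: cataagttttggCTTATCttggataaggta
DAL5: atacggctaataCTTATCattatctggttt
DAL1, DAL4, DUR3 and DUR12 had none. Of 16 other nitrogen-repressed genes 14 were higher (87.5%, beside 66.8% of protein-coding genes). After rescaling 3 were higher (18.75%, below the 23.3% of protein-coding genes) and 1 lower (6.25%, beside 32.3%). The 3 were GDH2, a glutamate dehydrogenase (2.06, rescaled 1.36), the ammonium permease gene MEP2 (1.71, rescaled 1.03) and UGA1 of GABA use (1.12, rescaled 0.42). The general amino acid permease gene GAP1 was at 0.89 and 0.21 (rescaled adjusted p = 0.105).

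Meiotic genes, which are kept off in haploid cells growing on glucose, formed a list of 37. Of them 30 were higher (81.1%, beside 66.8% of protein-coding genes) and 24 after rescaling (64.9%, beside 23.3%), 0 were lower on either scale, and the medians were 1.36 and 1.03. IME2, the kinase that promotes meiosis, had densities of 0.281 and 0.273 in upf1 cells and 0.0219 and 0.0265 in WT cells (3.25, SE 0.18, adjusted p = 5.04e-07, rescaled 2.69). RED1 and ZIP1 of the synaptonemal complex rose by 2.65 and 2.56 (rescaled 2.08 and 2.03). Their regulators did not pass the threshold: IME1 had 0.0216 and 0.0189 in upf1 cells and 0.00617 and 0.0174 in WT cells (0.65, adjusted p = 0.0659, but called at 1.14 without replicate 2 of WT), and NDT80 was at 0.34 (adjusted p = 0.27). Most of the list stayed low in upf1 cells, with a median density of 0.0313, and IME2 was below the median protein-coding density of 0.369 there. ISC10, the largest increase of the list, was above that median, at 1.46 and 1.62.

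Several meiotic genes carry introns that are poorly spliced during growth. REC107, a recombination gene spliced with the help of Mer1, had 0.386 and 0.485 in upf1 cells and 0.0596 and 0.0685 in WT cells (2.66, rescaled 2.01), and the helicase gene HFM1 0.164 and 0.176 in upf1 cells against 0.0211 and 0.0264 in WT cells (2.59, rescaled 2.02). Of the list of 22 poorly spliced or intron-regulated genes 17 were higher (77.3%, beside 66.8% of protein-coding genes). After rescaling 10 were higher (45.5%, beside 23.3%) and 3 lower (13.6%, beside 32.3%). The 3 lower were RPL30 (-0.55), YRA1 (-0.56) and DBP2 (-0.36). RPL22B, a minor ribosomal protein gene whose protein blocks its own splicing, had 4.35 and 4.64 in upf1 cells and 1.21 and 1.28 in WT cells (1.85, rescaled 1.15). GCR1, the activator of glycolytic genes, and SUS1 of mRNA export rose by 1.24 and 1.17 (rescaled 0.54 and 0.48). Counted features span introns, so spliced and unspliced RNA of these genes cannot be told apart. The 175 multi-exon genes outside the ribosomal proteins had a rescaled median of -0.06, with 48 higher (27.4%) and 55 lower (31.4%).

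Of 4 alpha-cell genes 2 rose in these a cells. SAG1, the alpha-agglutinin gene, had densities of 0.463 and 0.478 in upf1 cells and 0.0778 and 0.0773 in WT cells (2.52, rescaled 1.86), and STE3, the receptor for a-factor, 0.0486 and 0.0519 in upf1 cells against 0.0105 and 0.0130 in WT cells (1.70, rescaled 1.22). The pheromone genes MF(ALPHA)1 and MF(ALPHA)2 stayed near 0, with at most 0.00680 in upf1 cells and 0.00711 in WT cells. The 6 a-cell markers were not called on the deposited scale, from -0.22 to 0.24, and all 6 were lower after rescaling.

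Transport and nutrient lists split by member. On the deposited scale the 23 genes of the iron regulon had 10 higher (43.5%, beside 66.8% of protein-coding genes) and 5 lower (21.7%, beside 0.408%). After rescaling 7 were higher (30.4%, beside 23.3%) and 11 lower (47.8%, beside 32.3%). The ferric reductase genes FRE2 and FRE3 rose, FRE2 with 0.268 and 0.294 in upf1 cells against 0.0365 and 0.0371 in WT cells (2.76, rescaled 2.15), and FRE3 by 2.63. FET3, the multicopper ferroxidase (YMR058W, chromosome XIII, 388822 to 390732), went down, with 2.55 and 3.02 in upf1 cells against 4.43 and 4.92 in WT cells (-0.75, SE 0.15, adjusted p = 0.00129, rescaled -1.46). Its partner permease FTR1 (-0.48), the siderophore transporter SIT1 (-0.53), the cell wall mannoprotein FIT2 (-0.56) and TIS11, which destabilises mRNAs when iron is short (-0.56), were lower with it on both scales. These 4 rested on single libraries on the deposited scale, with adjusted p from 0.0513 to 0.187 without replicate 1 of upf1 and from 0.0662 to 0.113 without replicate 2 of WT. Without replicate 1 of WT the calls of FTR1 (0.0841) and TIS11 (0.0588) were lost, and that of FTR1 also in a fit of the 4 DMSO libraries alone (0.0550).

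In the phosphate regulon of 17 genes 3 were higher (17.65%) and 5 lower (29.4%). After rescaling 1 was higher (5.88%) and 13 lower (76.5%). Among all protein-coding genes 66.8% were higher and 0.408% lower, and rescaled 23.3% and 32.3%. GIT1, a glycerophosphoinositol permease gene, had 0.198 and 0.241 in upf1 cells and 0.0241 and 0.0225 in WT cells (2.96, rescaled 2.40). PHO89, a sodium-phosphate symporter gene, had 0.0657 and 0.111 in upf1 cells against 0.280 and 0.309 in WT cells (-1.72, SE 0.25, adjusted p = 1.29e-04, rescaled -2.43), a wide gap in the other direction. SPL2 (-0.72), which lowers low-affinity phosphate uptake, PHM6 (-0.66), the acid phosphatase gene PHO12 (-0.60) and VTC1 of polyphosphate synthesis (-0.34) were lower on both scales. On the deposited scale SPL2, PHO12 and VTC1 were not called without replicate 2 of WT (adjusted p = 0.0772, 0.314 and 0.204) or replicate 1 of upf1 (0.0778, 0.164 and 0.249), nor VTC1 without replicate 1 of WT (0.0823) and PHO12 without replicate 2 of upf1 (0.0584). In a fit of the 4 DMSO libraries alone VTC1 (0.0683) and PHO12 (0.0532) were not called either. The magnesium transporter gene ALR2 rose by 2.62 (rescaled 1.98), with reads that can be shared with ALR1. Among 14 thiamine genes, 13 of them tested, 11 were higher (84.6%), led by THI21 (2.86). After rescaling 7 thiamine genes were higher (53.85%) and 2 lower (15.4%). Among 17 hexose transporter and sensor genes 7 were higher (41.2%) and 1 lower (5.88%), HXT8 at 2.09 and HXT4 at -0.63. After rescaling 2 of these 17 were higher (11.8%) and 5 lower (29.4%).

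Abundant housekeeping mRNAs had changes near 0 on the deposited scale and below that of the typical mRNA after rescaling. Of 137 cytosolic ribosomal protein genes 18 were higher (13.1%, beside 66.8% of protein-coding genes) and 0 lower, with a median of 0.20. After rescaling 1 was higher (RPL22B) and 131 lower (95.6%, beside 32.3%), with a median of -0.51. The 21 glycolysis and fermentation genes had medians of 0.04 and -0.67 (2 higher and 2 lower, rescaled 19 lower), and the 10 histone genes 0.09 and -0.62 (1 higher, rescaled 10 lower). TDH3, an abundant glyceraldehyde-3-phosphate dehydrogenase mRNA, had 180 and 225 in upf1 cells and 184 and 216 in WT cells, which overlapped (0.01, adjusted p = 0.93).

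Decreases on both scales were few, and the 10 largest among genes of at least median density were small beside that of NAM7. GLK1, glucokinase (YCL040W, chromosome III, 50838 to 52340), had densities of 0.507 and 0.585 in upf1 cells and 0.988 and 0.895 in WT cells, a log2 change of -0.78 (SE 0.15, adjusted p = 9.42e-04, rescaled -1.49). YCL042W (-0.77) overlaps the start of GLK1 on the same strand and shares its reads. TDH1, the minor glyceraldehyde-3-phosphate dehydrogenase gene, had 0.306 and 0.393 in upf1 cells against 0.514 and 0.551 in WT cells (-0.61, rescaled -1.31). The cell wall mannoprotein genes TIP1 (-0.67) and CWP1 (-0.65), the secreted sterol-binding protein gene PRY1 (-0.65) and the glucose transporter gene HXT4 complete the 10, with FET3 and SPL2. Below that density 4 genes, chosen after their values were seen, had larger decreases than GLK1. They were PHO89, given above, the stress-induced gene DDR2, with 0.0584 and 0.0324 in upf1 cells and 0.132 and 0.108 in WT cells (-1.35, rescaled -2.05), the cell wall mannoprotein gene TIR1 (-1.16, rescaled -1.87) and YOL019W-A, with 2 and 0 reads in upf1 cells and 4 and 4 in WT cells, whose calls were lost without replicate 1 of WT (adjusted p = 0.181, rescaled 0.107) or replicate 2 of upf1 (0.240, rescaled 0.120). On the deposited scale TIP1 and PRY1 were not called without replicate 1 of upf1 (adjusted p = 0.0678 and 0.0942), TIP1 without replicate 2 of WT (0.0742), and PRY1 and HXT4 without replicate 1 of WT (0.0650 and 0.110).

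**Figure D4:**
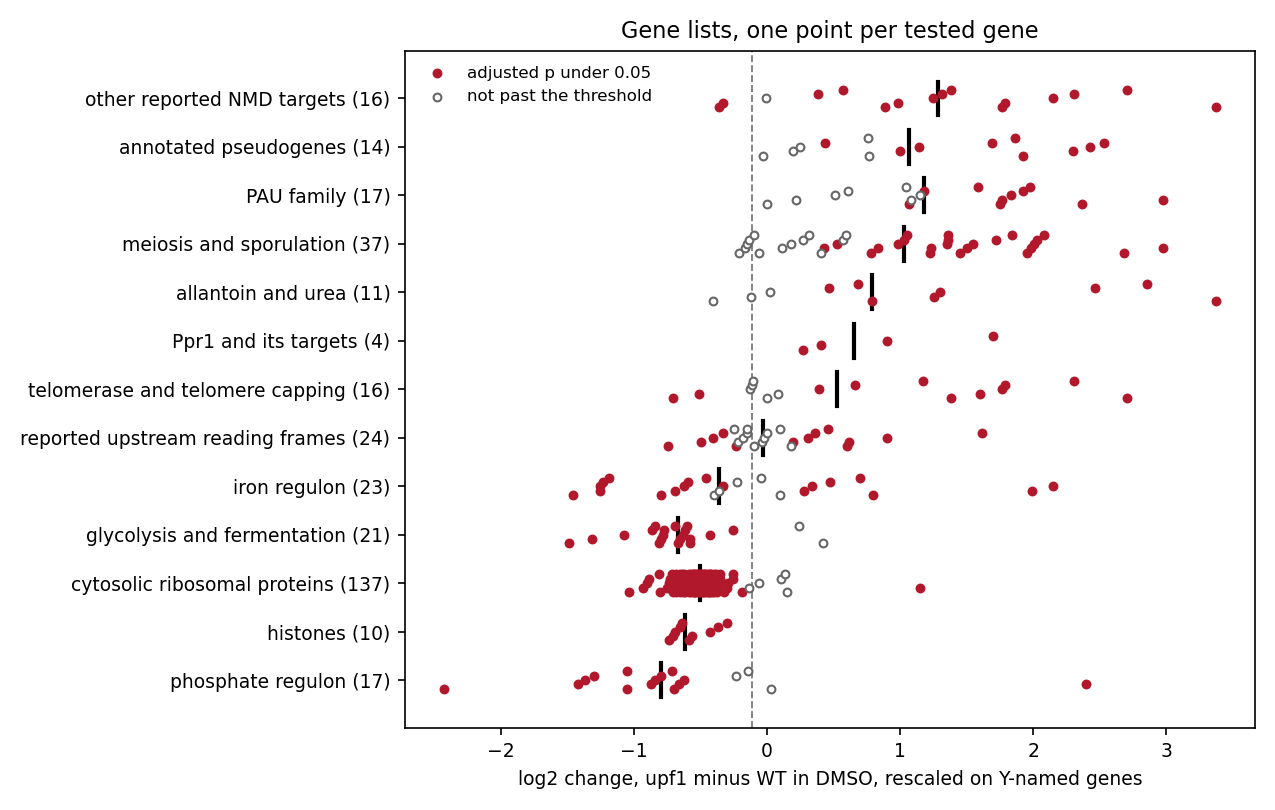
Rescaled log2 change (x axis, upf1 minus WT in DMSO) of every tested gene of 13 lists, with the number tested in brackets; filled points passed the threshold, black bars are list medians and the dashed line is the median of protein-coding genes at -0.11. The reported NMD targets, pseudogenes, PAU and meiotic genes have medians above 1, and glycolysis, ribosomal protein, histone and phosphate genes medians below -0.5.

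Among non-coding RNAs with at least 20 reads in each upf1 library, the largest increases were of XUTs. That filter was set on the upf1 libraries alone, so it favours RNAs that are high there and says nothing on decreases. XUT1467 had densities of 0.268 and 0.283 in upf1 cells and 0.0123 in each WT library, with 495 and 338 reads in upf1 cells against 13 and 24 in WT cells, a log2 change of 3.98 (SE 0.16, adjusted p = 2.66e-07, rescaled 3.52). XUT0788 had 107 and 59 reads in upf1 cells and 0 and 1 in WT cells, so its fitted change of 4.37 depends on the pseudocount. SUT131, with 376 and 223 reads in upf1 cells and 14 and 26 in WT cells, was at 3.65 (rescaled 3.06), and SUT745 and SUT588 at 3.54 and 3.33. CUT256 (3.25) and NUT0672 (3.34), a transcript seen without the termination factor Nrd1, led their classes. Their positions are not used here.

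The CHX libraries, which share no library with the comparison above, gave the same direction for most of these genes. Of the 1365 protein-coding genes higher on both scales in DMSO, 1148 had a rescaled change above 0 between upf1 and WT cells in CHX (84.1%), beside 2525 of all 5878 tested (43.0%). In CHX 415 of them were called higher (30.4%), beside 7.67% of all protein-coding genes and 5.9% of all features tested. Their median rescaled change was 0.83 in DMSO and 0.26 in CHX. After rescaling, all 24 genes lower on both scales in DMSO were below 0 in CHX, and 18 were called lower (75%), beside 10.7% of all. On the deposited scale GLK1 and YCL042W were above 0 in CHX (0.31 and 0.32).

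**Figure D5:**
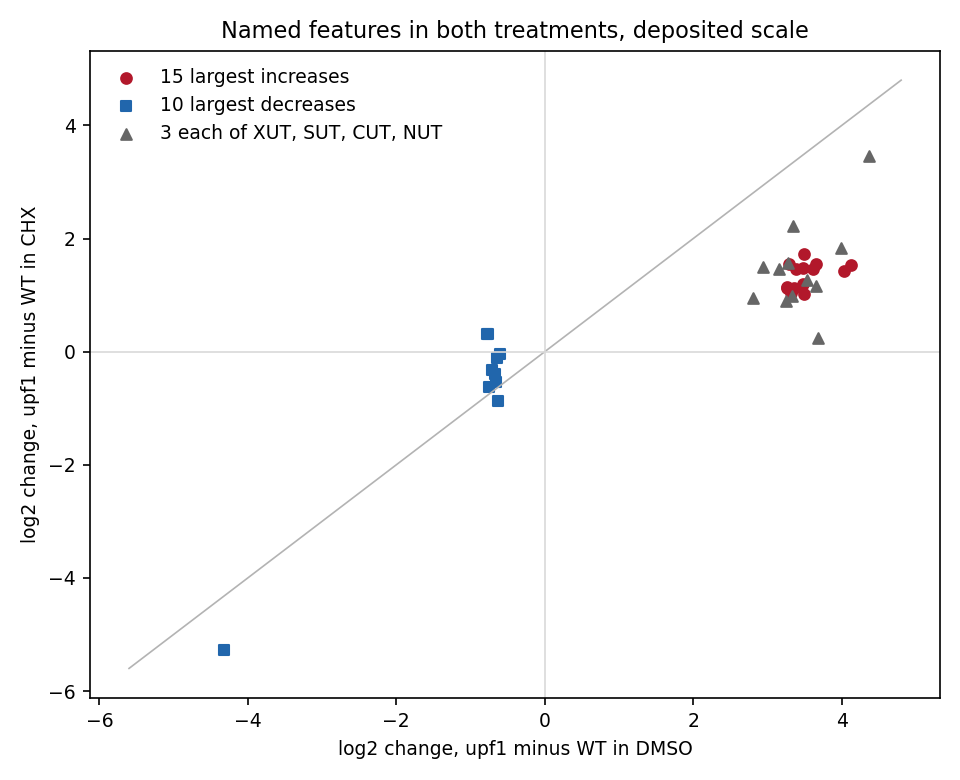
Log2 change on the deposited scale, upf1 minus WT, in DMSO (x axis) and in CHX (y axis) for the 15 largest increases (circles), 10 largest decreases (squares) among genes of at least median density, and 3 features each of XUT, SUT, CUT and NUT (triangles); the line marks equal change. The 15 increases lie below the line, from 3.26 to 4.13 in DMSO, and NAM7 is at -4.32.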

How the data were processed

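Total RNA with ERCC spike-in was depleted of rRNA and made into stranded libraries, per the labels. The submitters' processing notes name HISAT2 2.2.0, featureCounts 2.0.0, Trim Galore and DESeq2, with build R64. The deposited values are normalized read densities (a signal per feature length), and the authors' normalization step is not given in the sources used here. Whole reads were recovered for 11986 of 11993 features (tolerance 0.001 reads). Densities were log2-transformed with a pseudocount of 0.00549, the 5th percentile of values above 0, and 293 features with a mean below it were left out. limma 3.58.1 (R 4.3.3) fitted the 4 group means to all 8 libraries, leaving 4 residual degrees of freedom, with a mean-variance trend, with Benjamini-Hochberg adjustment over 11700 features at 0.05, tested on simulated data. Rescaling used the median of ratios over 6212 Y-named features above 0 in every library, and the filter stayed on the deposited densities. The 8 libraries held 9.1 to 25.7 M reads, which sets the precision of features with few reads.

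Named were the 15 largest increases on the deposited scale and 10 largest decreases on the rescaled scale among genes of at least median density (0.269) called on both scales with separate libraries, 3 features each of XUT, SUT, CUT and NUT with at least 20 reads per upf1 library, members of 5 lists (NMD factors, upstream reading frames, other NMD targets, Ppr1, telomeres), the extremes of other lists, and neighbours of the 5 leading genes. Further list members were chosen as examples after their values were seen. The members and lists were chosen with earlier results of these data known. Sequences are from the R64 reference.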

Additional observations from a re-analysis of the deposited data

Results flagged for a closer look

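Of the 37 features named for the largest changes (15 increases, 10 decreases and 12 non-coding RNAs), 29 had an effect of the upf1 genotype that differed between DMSO and CHX by the test of the difference itself (limma interaction term on the deposited scale, adjusted p under 0.05), and 27 of these also passed after rescaling. Over all features tested 25.5% passed that test, and 15.1% of protein-coding genes. Each value below is the log2 effect in DMSO minus that in CHX, and no cause was tested.

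For the 15 largest increases the effect was larger in DMSO throughout. The differences were 2.60 for SLO1, 2.60 for DAL7, 2.10 for ISC10, 2.14 for PAU7, 2.47 for YIL028W, 1.76 for SWC7, 1.99 for YNR068C and 2.29 for DAL5. They were 1.92 for NUT2, 2.25 for STN1, 2.22 for DFP1, 2.29 for YCR095W-A, 1.75 for BSC5, 2.13 for YJL213W and 2.11 for HTL1. These genes were picked for their effect in DMSO, which leans the difference toward DMSO. All 15 were still higher in upf1 cells in CHX after rescaling, by 0.65 to 1.35.

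Among the non-coding RNAs picked in the same way the difference was 2.16 for XUT1467, 3.45 for XUT0495, 2.49 for SUT131, 2.27 for SUT745 and 2.35 for SUT588. It was 2.35 for CUT256, 1.44 for CUT046, 1.85 for CUT526 (not called after rescaling, adjusted p = 0.0733), 1.13 for NUT0672, 1.70 for NUT0671 and 1.69 for NUT1193.

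Among the decreases, NAM7 differed by 0.95, a smaller loss in DMSO than in CHX, but not after rescaling (0.41, adjusted p = 0.128). GLK1 differed by -1.10 and the overlapping YCL042W by -1.09. On the deposited scale both were below 0 in DMSO (-0.78 and -0.77) and above 0 in CHX (0.31 and 0.32). Of the lists, the difference was called for 12 of the 16 other reported NMD targets, 7 of the 16 telomere genes, 4 of the 24 genes with upstream reading frames and 2 of the 5 NMD factors. The NMD target and telomere lists share members.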

How the results depend on the processing

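Rescaling the libraries on Y-named genes changed the deposited-scale counts most, to 3630 features higher and 2498 lower, 1367 protein-coding genes, 145 CUTs and 519 NUTs higher, and 142 tRNAs lower. It moved the class medians to 0.91 for XUTs, 0.93 for SUTs, 0.32 for NUTs and -1.08 for tRNAs, and it reversed those of protein-coding genes (-0.11) and CUTs (-0.10). With the pseudocount divided by 10 the deposited-scale medians of XUTs, SUTs, CUTs and NUTs were 1.77, 1.76, 0.57 and 1.10, and with it multiplied by 10 they were 0.43, 0.55, 0.12 and 0.18. limma voom on the recovered reads, chosen after seeing the data, gave 1.74, 1.75, 0.56 and 1.13. Leaving out 1 library gave 2366 to 3980 protein-coding genes higher on the deposited scale and 96 to 133 CUTs higher after rescaling, the lowest without replicate 1 of upf1.

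Leaving out 1 library also turned the sign of small changes that were not called. On the deposited scale the ranges were -0.13 to 0.045 for CLN3, -0.030 to 0.42 for SCO1, -0.15 to 0.12 for SIR2, -0.58 to 0.055 for MF(ALPHA)2, -0.14 to 0.17 for TDH3, -0.37 to 0.033 for DAL80, -0.048 to 0.23 for URA5 and -0.021 to 0.37 for COS3. Rescaled, they were -0.081 to 0.24 for CDC13, -0.088 to 0.091 for SIR4, -0.38 to 0.044 for NDT80, -0.27 to 0.020 for DAL81, -0.11 to 0.15 for DAL4, -0.39 to 0.75 for IME1, -0.050 to 0.48 for HIS3 and -0.13 to 0.36 for MF(ALPHA)1.

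With a replicate block 176 features and 93 tRNAs were lower on the deposited scale. Deviations of same-numbered DMSO libraries correlated at 0.0664, so the numbers were not taken as pairs. The cause of these changes was not tested. The planned edgeR, DESeq2 and TMM alternatives were not run, and limma voom on the recovered reads was used in their place. Low read numbers limit non-coding RNAs, tRNAs and silenced genes most.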

Other observations

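Over all protein-coding genes 66.8% were higher on the deposited scale, and rescaled 23.3% were higher and 32.3% lower. Of 43 targets of the amino acid regulator Gcn4 28 were higher (rescaled 7 higher and 19 lower), and of 68 ribosome biogenesis genes 43 were higher (rescaled 1 and 20). Of 22 genes of the exosome, Ski and TRAMP complexes, which degrade RNA from the other end, 20 were higher, but 0 after rescaling, with 4 lower. Of a list of 30 stress-induced genes, 16 were higher and 1 was lower (rescaled 5 and 10), and among 20 chaperone genes of the heat shock factor Hsf1 17 were higher (rescaled 3 and 5). The 17 cyclins and cell cycle regulators had 11 higher, and after rescaling 10 lower with a median of -0.29.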
